A study of Mus musculus with 6 samples.

Results

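The Mas-related G protein-coupled receptors (Mrgpr genes) examined here were Mrgprg, Mrgpre, Mrgprf, Mrgprh, Mrgprb1 and Mrgprb2, which are 6 of the 24061 genes in a count table of mouse skin. They were selected on their raw counts per library in the same comparison, saline against recombinant IL-31 (rIL-31), so their values in that comparison are given as a description and without a test. Skin was taken from the shaved back of female C57BL/6 mice aged 8 to 14 weeks, after daily intradermal injections for 14 days. The saline group received 50 μl of saline, and the rIL-31 group received 20 μg of rIL-31 in the same volume. Each group gave 3 RNA-Seq libraries, and since nothing states that different animals stood behind them, the spread between libraries may be technical in part. Both groups were of the same strain without a further allele named, and a library is an average over whole skin.

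Mrgpr receptors are rhodopsin-type G protein-coupled receptors that were first described in the small sensory neurons that carry itch and pain. Many of them couple to Gq and phospholipase C and respond to peptides, and several branches of the family have been duplicated in rodents and have no single human counterpart. Mrgprb1 and Mrgprb2 are known instead from mast cells, which degranulate when cationic peptides or drugs bind Mrgprb2, the mouse counterpart of human MRGPRX2. Mrgpre, Mrgprf, Mrgprg and Mrgprh are orphan receptors without an established ligand. The question put to the data was how much transcript of each receptor the skin held, and how that compared with the other members of the family, with the cells that carry them and with the genes for their ligands and signaling.

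In the GRCm38 assembly (mm10), 5 of the 6 genes lie on chromosome 7. Mrgprb1 (chr7:48444113-48456342) and Mrgprb2 (chr7:48550965-48558086) stand on the minus strand within the cluster of Mrgpra, Mrgprb and Mrgprx genes. Mrgprg (chr7:143763710-143766993) and Mrgpre (chr7:143778363-143784500) are neighbours on the minus strand far from that cluster, and Mrgprf (chr7:145300828-145309557) is on the plus strand beside Mrgprd. Mrgprh (chr17:12876034-12877977) lies on the plus strand of chromosome 17 beside Mas1, the receptor that gave the family its name. The 250 bases before the start of Mrgprg, Mrgprb1 and Mrgprb2 are shown because Mrgprg had no read in saline-treated skin and because the other genes are the mast cell receptors of the set. The sequences are from RefSeq (GRCm38.p6), minus strand, and capitals mark matches to the motifs named after them.
Mrgprg, chr7:143766994-143767243: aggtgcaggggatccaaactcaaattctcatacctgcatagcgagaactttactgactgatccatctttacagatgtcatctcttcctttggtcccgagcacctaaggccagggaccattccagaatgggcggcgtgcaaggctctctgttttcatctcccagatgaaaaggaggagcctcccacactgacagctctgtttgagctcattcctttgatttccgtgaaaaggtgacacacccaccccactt
Mrgprb1, chr7:48456343-48456592: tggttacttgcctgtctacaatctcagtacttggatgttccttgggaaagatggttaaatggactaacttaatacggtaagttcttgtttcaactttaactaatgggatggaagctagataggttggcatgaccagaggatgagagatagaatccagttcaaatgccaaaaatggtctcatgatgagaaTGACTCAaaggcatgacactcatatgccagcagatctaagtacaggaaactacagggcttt
Mrgprb2, chr7:48558087-48558336: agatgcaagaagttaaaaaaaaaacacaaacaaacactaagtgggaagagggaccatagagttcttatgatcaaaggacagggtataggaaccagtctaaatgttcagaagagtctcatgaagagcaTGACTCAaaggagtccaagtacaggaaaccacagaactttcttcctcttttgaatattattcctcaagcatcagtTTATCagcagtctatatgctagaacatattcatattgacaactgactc

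The motif TGACTCA, the letters bound by AP-1-type factors, occurred once before Mrgprb1, 61 bases from the start, and once before Mrgprb2, 123 bases from the start. It was searched on both strands and was added to the search after these windows had been read, and 4.46% of 32851 promoter windows of 250 bases held it. In both genes the run aagtacaggaaac, the longest that the windows share (13 bases), lay downstream of it. The GATA motif GATAA occurred once, before Mrgprb2 at 48 bases on the opposite strand (TTATC in the sequence), and 22.6% of all windows held it. The E-box CATGTG, present in 12.3% of all windows, occurred before Mrgpre, 118 bases from its start, and in none of the other 4 windows searched, those of Mrgprg, Mrgprh, Mrgprb1 and Mrgprb2. Mrgprf was not searched. The E-boxes CACGTG (6.02% of windows) and CAGCTG (13% of windows) matched no window of Mrgprg, Mrgpre, Mrgprh, Mrgprb1 or Mrgprb2, and none of the 5 motifs matched those of Mrgprg and Mrgprh. A match is a description of the letters and not a site of binding.

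Total counts per library ran from 21710679 to 23963685 in the saline group and from 23122953 to 25552684 in the rIL-31 group, and 3 counts corresponded to between 0.117 and 0.14 counts per 1000000 (CPM, scaled with TMM factors). Skin transcripts were abundant, with Krt5 at 1684 to 1839 CPM and Col1a1 at 2255 to 2301 CPM in saline-treated skin. The basal keratins Krt5 and Krt14 and the suprabasal Krt10 rose in rIL-31-treated skin, by 0.90 ± 0.14, 1.08 ± 0.17 and 0.71 ± 0.11 on the log2 scale (SE, edgeR's quasi-likelihood test, Benjamini-Hochberg adjusted p (FDR) 0.00499, 0.00581 and 0.00458). In bulk skin, more cells of a type and more transcript per cell cannot be told apart. Libraries also differed in how counts moved with the GC content of the gene. Over 14519 genes, Spearman's rho between GC content and deviation from the mean of all libraries was -0.127, -0.231 and -0.269 for saline replicates 1 to 3 and 0.413, 0.302 and -0.264 for rIL-31 replicates 1 to 3, so that rIL-31 replicates 1 and 2 stood apart from the other 4 libraries. Folds after offsets for GC content and length are therefore given beside those of Mrgpre, Mrgprf, Mrgprb1 and Mrgprb2. For Mrgprg (54.9% GC) the lower bound of the fold was not recomputed with the offsets, and Mrgprh did not pass the filter.

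Mrgprg was not detected in any saline library. It had 0 counts in saline replicates 1, 2 and 3 and 40, 45 and 93 counts in rIL-31 replicates 1, 2 and 3. All rIL-31 libraries stood above all saline libraries, and replicate 3 of the rIL-31 group held more counts than the other 2 together. The rIL-31 libraries reached 1.69, 1.88 and 3.62 CPM, which was at least 18.2-fold higher than saline when each saline library was set to the floor of 3 counts, or 4.18 on the log2 scale. Of the 4791 genes without a count in the saline libraries, 463 had a count in some rIL-31 library and 18 had counts in all 3, and Mrgprg was the only one with 40 or more in each. That limit was set by the lowest count of Mrgprg itself. The gene passed the filter on low counts only through the rIL-31 group. The transcript shared no run of 50 bases with any other annotated transcript.

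Osbpl5, a lipid-transfer protein gene near Mrgprg that was looked at after its counts had been seen, did not pass the test and differed by 0.23 ± 0.11 on the log2 scale (SE, edgeR, FDR = 0.295). Over the 6 libraries, the genes whose log2 CPM followed Mrgprg most closely were Sgk1 (Pearson r = 0.997), Il1f5 (r = 0.997) and Cfb (r = 0.996). Sgk1 encodes a stress-regulated kinase, Il1f5 an epidermal antagonist of the IL-36 receptor and Cfb complement factor B. As many as 232 of 15165 genes had an r above 0.95 with Mrgprg over these 6 points, which share the step between the groups.

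**Figure D1:**
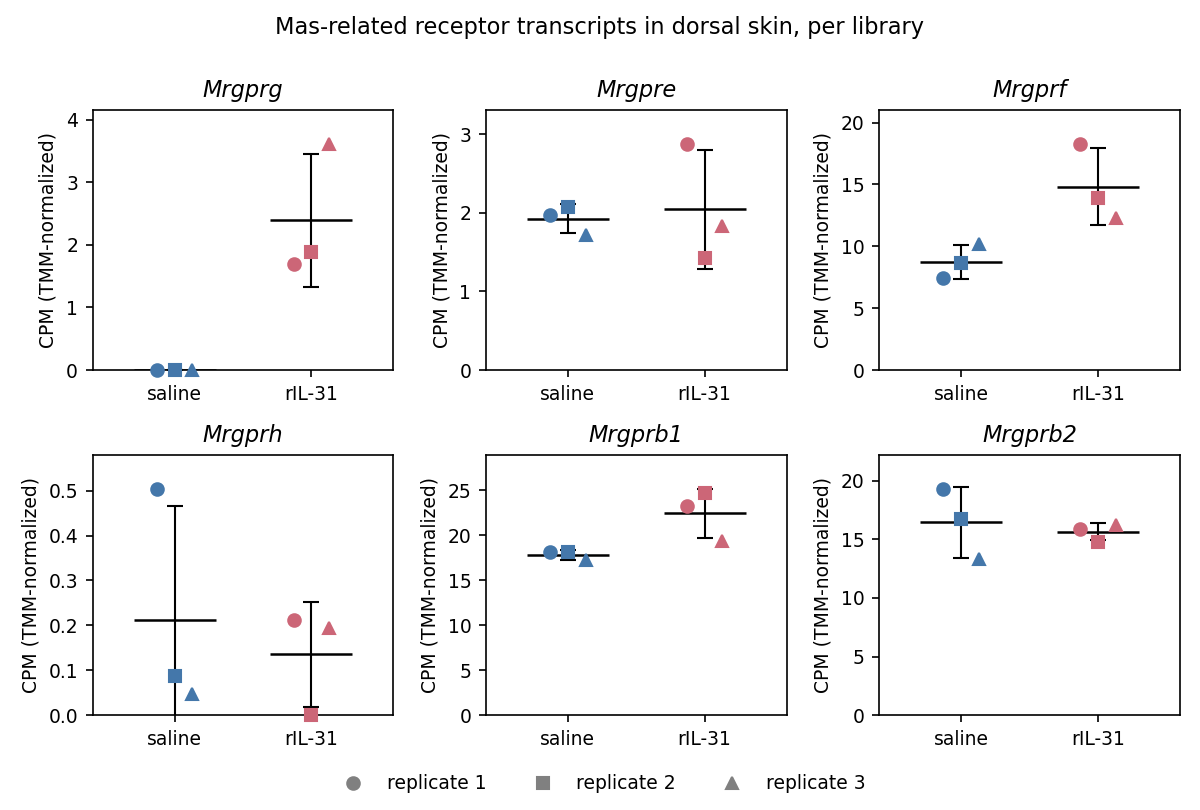
Level of each receptor per library, in CPM scaled with TMM factors, on a linear axis from 0 with a separate range for each gene. Points are libraries (shape gives the replicate number), lines are group means and bars are the SD over 3 libraries. Mrgprg is at 0 in the 3 saline libraries and at 1.69 to 3.62 in the rIL-31 libraries, Mrgprf and Mrgprb1 separate by group, and Mrgpre, Mrgprh and Mrgprb2 overlap.

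Mrgprf, an orphan receptor known from smooth muscle and other stromal tissue, was higher in every rIL-31 library. It had 177, 199 and 218 counts in saline replicates 1 to 3 and 433, 332 and 316 counts in rIL-31 replicates 1 to 3. The groups did not overlap, and the highest value was that of rIL-31 replicate 1. The mean was 8.74 ± 1.37 CPM in saline and 14.8 ± 3.13 CPM in rIL-31 (SD, n = 3 each), a log2 fold change of 0.76 with an SE of 0.20. The gene is GC-rich (56.8% GC), and with offsets for GC content and length the log2 fold change was 0.61. Trim47 (r = 0.998), Mrpl57 (r = 0.993) and Emd (r = 0.991) followed its log2 CPM most closely over the 6 libraries, and 88 genes had an r above 0.95. Trim47 encodes a ubiquitin ligase of the tripartite motif family, Mrpl57 a mitochondrial ribosomal protein and Emd the inner nuclear membrane protein emerin. Next to Mrgprf, Nadsyn1, a gene of NAD synthesis, and Tpcn2, an endolysosomal channel gene, differed by 0.31 (edgeR FDR = 0.614) and 0.42 (edgeR FDR = 0.275) on the log2 scale.

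Genes of smooth muscle and fibroblasts were read beside Mrgprf. Of 12 smooth muscle and pericyte genes, all tested, 1 rose, where 4.51% of all tested genes rose and 3.73% fell. It was Smtn, which encodes the contractile-cell protein smoothelin (log2 fold change 0.38 ± 0.11, SE, edgeR FDR = 0.0803). That call was lost with the GC and length offsets, where its FDR was 0.156. The median log2 fold change of the list was 0.18, against 0.008 over all 16371 genes tested, and its summed level was 656 to 706 CPM in saline and 659 to 845 CPM in rIL-31. The contractile genes Acta2 and Myh11 differed by 0.20 and 0.13 on the log2 scale (edgeR FDR = 0.436 and 0.727). Rgs5, a pericyte gene, differed by -0.51 (edgeR FDR = 0.137). Of 10 dermal fibroblast genes, 2 rose (4.51% of all genes tested), namely Pi16, which marks adventitial fibroblasts (1.09 ± 0.15, edgeR FDR = 0.0025), and Fbln1, which encodes the matrix protein fibulin-1 (0.46 ± 0.14, edgeR FDR = 0.0964, and 0.139 with the offsets). The median of this list was 0.10. Whether these cells contributed to the difference in Mrgprf was not tested.

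Mrgpre was low in both groups, with means that lay within the spread of the libraries. It had 47, 48 and 37 counts in saline and 68, 34 and 47 counts in rIL-31, in the order of the replicates. The highest and the lowest library were both in the rIL-31 group, so the groups overlapped. The means were 1.93 ± 0.183 and 2.04 ± 0.752 CPM (SD, n = 3 each) and the log2 fold change was 0.08 with an SE of 0.39, which was -0.05 with GC and length offsets and -0.25 without rIL-31 replicate 1. Of the runs of 50 bases in its transcript, 1.35% occur in other transcripts, and a miRNA gene overlaps it on the opposite strand, so a few of its reads could belong elsewhere. Ric8a (r = 0.997), a chaperone of G protein alpha subunits, Pcdha5 (r = 0.995), a protocadherin, and Acp6 (r = 0.982), an acid phosphatase, followed it most closely over the 6 libraries.

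Mrgprh was near the limit of detection. It had 12, 2 and 1 counts in saline and 5, 0 and 5 counts in rIL-31. A single library, saline replicate 1, held 12 of the 15 counts of its group, and the groups overlapped. Over the groups, 10 counts in rIL-31 against 15 in saline gave a depth-corrected ratio of 0.621 with an exact (Clopper-Pearson) 95% interval of 0.25 to 1.48, which covers counting error only. The gene did not pass the filter on low counts. Its neighbour Mas1, the receptor for angiotensin-(1-7), had 6, 18 and 9 counts in saline, against 0, 4 and 3 in rIL-31, also too few for the test. For Mas1 the ratio of the pooled counts was 0.198 (95% interval 0.0738 to 0.455). This interval too covers counting error only, without the spread between libraries, and is not a test of the groups. The imprinted antisense gene Airn, which overlaps Mas1, was at 1.84 ± 0.698 CPM in saline and 1.83 ± 0.473 in rIL-31. Another gene nearby, Pnldc1, a ribonuclease of piRNA processing, rose by 1.67 ± 0.46 on the log2 scale (SE, edgeR FDR = 0.0667), and like Airn it was looked at after its values were known.

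Mrgprb1 and Mrgprb2 are the mast cell receptors of the set. Mrgprb1 had 431, 417 and 368 counts in saline replicates 1 to 3 and 549, 591 and 498 in rIL-31 replicates 1 to 3. All rIL-31 libraries were above all saline libraries, and rIL-31 replicate 3 was the closest to them in CPM (19.4, against 18.1, 18.1 and 17.2 in saline). The means were 17.8 ± 0.542 and 22.4 ± 2.75 CPM (SD, n = 3 each), a log2 fold change of 0.33 with an SE of 0.14. Mrgprb1 is poor in GC (37.0%), and with offsets for GC content and length its log2 fold change was 0.51.

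Mrgprb2 had 460, 385 and 286 counts in saline replicates 1 to 3 and 376, 355 and 417 in rIL-31 replicates 1 to 3. The saline libraries spanned the rIL-31 libraries in CPM, with 19.3, 16.7 and 13.3 against 15.9, 14.8 and 16.2. The means were 16.4 ± 3 and 15.6 ± 0.727 CPM (SD, n = 3 each) and the log2 fold change was -0.07 with an SE of 0.17. With the GC and length offsets its sign turned, to 0.08 (37.7% GC). Neither Mrgprb1 nor Mrgprb2 shared a run of 50 bases with another transcript. Within a library, Mrgprb1 had 0.937, 1.08 and 1.29 counts per Mrgprb2 count in saline, against 1.46, 1.66 and 1.19 in rIL-31. The ratio overlapped between the groups through saline replicate 3 and rIL-31 replicate 3, so a difference between the receptors in their response was not shown.

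In all, 3 of the 6 receptors (Mrgprg, Mrgprf and Mrgprb1) had every rIL-31 library above every saline library in CPM. Over all genes tested this held for 12.8%, and because the receptors were selected on these counts nothing is read from the comparison. Ece1, Klf5 and Coro1a followed Mrgprb1 most closely over the 6 libraries (r = 0.994 each), with 286 genes above 0.95. Ece1 encodes endothelin-converting enzyme, Klf5 a transcription factor of proliferating epithelium and Coro1a an actin-binding protein of leukocytes. For Mrgprb2 only 3 genes were above 0.95, namely Cbx8 (r = 0.964), a Polycomb protein, C6 (r = 0.960), a terminal complement component, and Adamts7 (r = 0.955), a metalloprotease.

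Several granule genes of mast cells and the IgE receptor gene Fcer1a were higher in rIL-31-treated skin. Of 22 mast cell genes, 19 were tested, and 6 rose and 0 fell at an FDR below 0.1 (edgeR's quasi-likelihood test), where 4.51% of all tested genes rose and 3.73% fell. At an unadjusted p below 0.05, 10 were higher and 0 lower, and DESeq2 also found 6 higher and 0 lower. The 6 were Hdc, the enzyme of histamine synthesis (log2 fold change 0.85 ± 0.15, SE, FDR = 0.00997), the chymase Cma1 (0.85 ± 0.17, FDR = 0.0174), the carboxypeptidase Cpa3 (0.53 ± 0.11, FDR = 0.02), Fcer1a, the alpha chain of the IgE receptor (1.05 ± 0.23, FDR = 0.0262), the tryptase Tpsab1 (1.58 ± 0.38, FDR = 0.0406) and the chymase Mcpt4 (0.45 ± 0.12, FDR = 0.0546). Without saline replicate 2 the count of genes that rose was 1, and without saline replicate 3 it was 2. The median of the list was 0.36, against 0.008 over all genes tested. The summed level of the whole list was 605 to 716 CPM in the saline libraries and 716 to 839 CPM with rIL-31, but it includes Smpx, which striated muscle also expresses, at 170 ± 58.7 CPM in saline, and Cd63 and Rab27b, which many cells express.

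Other defining genes of mast cells did not pass the test. Kit, the receptor for stem cell factor, differed by -0.21 ± 0.14 on the log2 scale (SE, edgeR FDR = 0.455), and the tryptase Tpsb2 by 0.56 ± 0.22 (FDR = 0.19). The IgE receptor beta chain Ms4a2 differed by -0.17 (FDR = 0.825). Cma1, Mcpt4 and Cpa3, proteases of connective-tissue mast cells, were at 30.8, 44.4 and 87.1 CPM in saline, whereas the mucosal proteases Mcpt1 and Mcpt2 had at most 9 counts in a library. The defining basophil genes Mcpt8 and Prss34 had at most 12 and 5 counts per library. Whether the number of mast cells or basophils had a part in the levels of Mrgprb1 and Mrgprb2 was not tested.

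**Figure D2:**
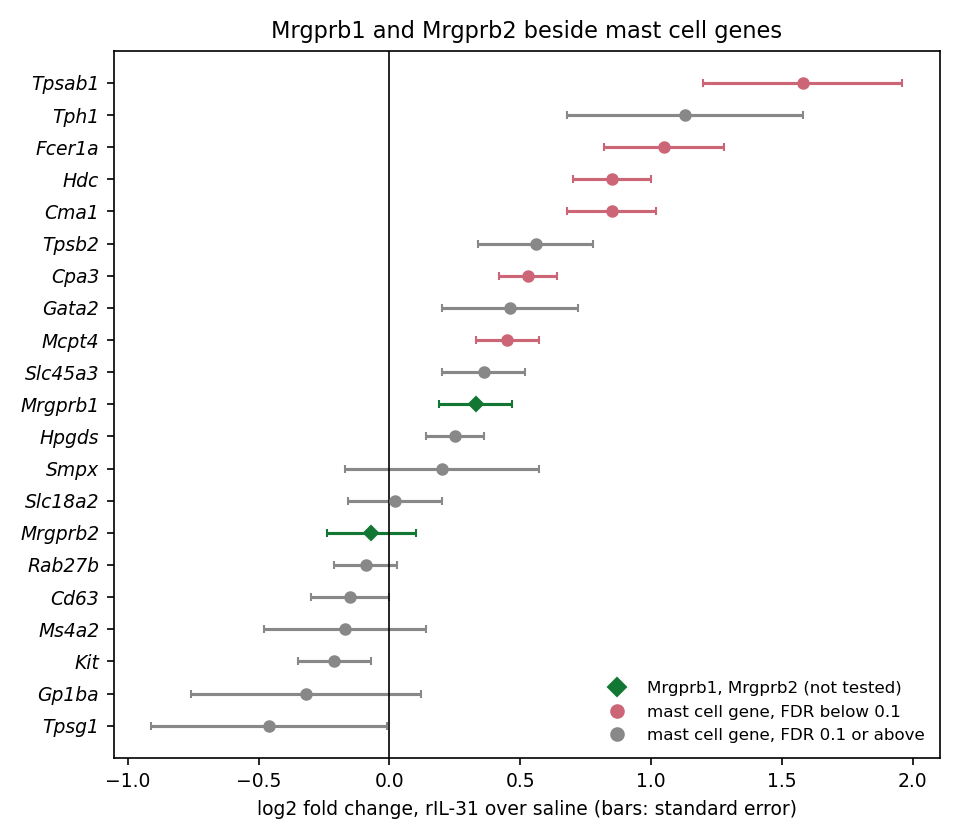
Log2 fold change of rIL-31 over saline for the 19 tested mast cell genes and for Mrgprb1 and Mrgprb2, sorted by value. Points are edgeR estimates from 3 libraries a group and bars are 1 SE, with the genes at an FDR below 0.1 in red. Mrgprb1 (0.33) lies near the median of the list (0.36) and Mrgprb2 (-0.07) below it, between Slc18a2 and Rab27b.

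Mrgprb1 and Mrgprb2 were also set against mast cell genes of the same library. These ratios were formed after the values had been seen. Mrgprb1 had 20.5, 21.4 and 19.4 counts per 100 counts of Cpa3 in saline, against 20.4, 19.9 and 14.0 in rIL-31, so that rIL-31 replicates 1 and 2 lay within the saline range and replicate 3 below it. Mrgprb2 had 21.9, 19.7 and 15.1 counts per 100 of Cpa3 in saline, against 14.0, 12.0 and 11.7 in rIL-31, with every rIL-31 library below every saline library. The summed level of Kit, Cpa3, Cma1, Mcpt4 and Tpsb2 was 211, 209 and 218 CPM in saline and 287, 267 and 317 CPM in rIL-31. Per 100 counts of these 5 markers, Mrgprb1 was at 8.57, 8.65 and 7.85 in saline, against 8.10, 9.23 and 6.11 in rIL-31. Mrgprb2 was at 9.15, 7.98 and 6.10 in saline, against 5.55, 5.54 and 5.12 in rIL-31, again without overlap. The gap between the lowest saline and the highest rIL-31 library was small in each case, and no test was made because the numerators are among the selected genes. The log2 fold change was 0.53 for Cpa3 and -0.07 for Mrgprb2, so the lower ratio goes with the rise of Cpa3. With GC and length offsets these values were 0.64 and 0.08. The ratio depends on the marker chosen. Of the 19 tested mast cell genes 6 rose, but Kit, Ms4a2 and Slc18a2 did not (-0.21, -0.17 and 0.02). No ratio to any of these 3 alone was formed.

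**Figure D3:**
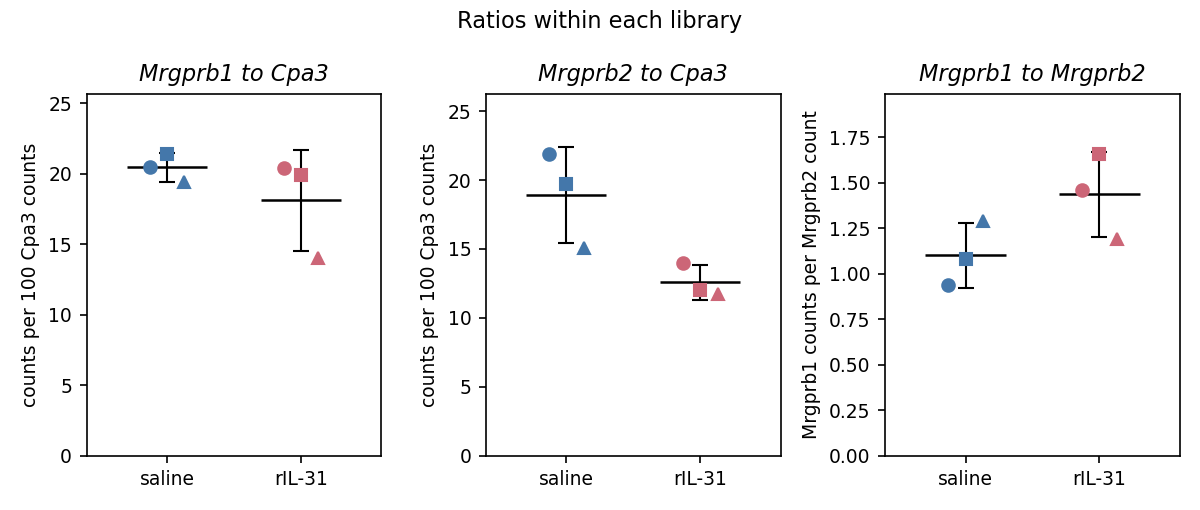
Counts of Mrgprb1 and of Mrgprb2 per 100 counts of Cpa3, and Mrgprb1 counts per Mrgprb2 count, in each library on linear axes from 0. Points are libraries (shapes are the replicate numbers), lines are means and bars the SD over 3 libraries. Mrgprb2 to Cpa3 does not overlap between saline (15.1 to 21.9) and rIL-31 (11.7 to 14.0), and the other ratios overlap. Cpa3 itself was higher in rIL-31 (log2 fold change 0.53).

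The remaining members of the family were measured for comparison. Of 33 annotated Mrgpr and Mas1 genes, 21 were in the count table and 15 had a count. Among the 15 genes other than the 6 receptors, 9 had a count and 5 passed the filter on low counts, of which 0 rose and 0 fell (edgeR's quasi-likelihood test, FDR below 0.1, against 4.51% and 3.73% of all genes tested), with 1 at an unadjusted p below 0.05, and DESeq2 likewise called 0 in either direction. Of the receptors known from itch-sensing neurons, Mrgprd had no count, Mrgpra3 had 7 counts, all in rIL-31 replicate 1, and Mrgprx1 had up to 36 in a library. Mrgpra1, Mrgpra6, Mrgpra9, Mrgprb4 and Mrgprb8 had no count, and Mrgprb5 had 2 counts and Mrgpra4 at most 19 in a library.

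Mrgprb3, a relative of Mrgprb2 in the same cluster, had the highest level per length of the family in saline. It had 444, 280 and 234 counts in saline and 153, 333 and 171 counts in rIL-31. In CPM rIL-31 replicates 1 and 3 were below all saline libraries and replicate 2 was within their range. The log2 fold change was -0.63 ± 0.31 (SE, edgeR FDR = 0.303), and without rIL-31 replicate 2 the FDR was 0.0522. Per 100 counts of Cpa3, Mrgprb3 was at 21.1, 14.4 and 12.3 in saline, against 5.68, 11.2 and 4.80 in rIL-31, which did not overlap. Cpa3, itself higher in rIL-31, was the only marker used for this ratio. Mrgprx2, which lies between Mrgprb1 and Mrgprb2 and is known as MrgB10, had 91, 77 and 73 counts in saline, against 46, 58 and 121 in rIL-31 (log2 fold change -0.22 ± 0.36, FDR = 0.803).

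Mrgpra2a and Mrgpra2b had low counts with every rIL-31 library above every saline library. Mrgpra2a had 5, 7 and 2 counts in saline, against 16, 14 and 25 in rIL-31 (log2 fold change 1.85 ± 0.70, SE, edgeR FDR = 0.171). Mrgpra2b had 5, 9 and 0 counts in saline and the same 16, 14 and 25 in rIL-31 (1.85 ± 0.87, FDR = 0.275). The transcripts are near copies, with 87.5% of the 50-base runs of Mrgpra2a found elsewhere, mostly in Mrgpra2b, so their counts cannot be assigned to one gene. These genes belong to the Mrgpra branch, and in mouse they are known from neutrophils. Genes of neutrophils, a list added after the values had been seen, gave 2 that rose of 6 tested (4.51% of all genes tested), namely the calcium-binding protein S100a9 (0.89 ± 0.16, FDR = 0.00915) and the receptor Csf3r (0.64 ± 0.14, FDR = 0.0277). S100a8, the partner of S100a9, differed by 1.01 ± 0.33 (FDR = 0.113) and passed by DESeq2, with the GC and length offsets (FDR = 0.0318), with the replicate block, without the filter and without rIL-31 replicate 2. The paper measured both S100 genes by RT-PCR as genes of barrier function and inflammation in skin, and reported a significant increase of each with rIL-31. Whether neutrophils were their source here was not tested. Cxcr2, also in the list, differed by 0.22 (edgeR FDR = 0.468). The summed level of the neutrophil list was 96.2 to 127 CPM in saline and 134 to 171 in rIL-31. Of the defining granule genes, Elane and Mpo had at most 6 counts in a library. Mrgprx1, known as MrgC11, had 6, 10 and 16 counts in saline, against 36, 0 and 14 in rIL-31 (0.53 ± 1.03, FDR = 0.834).

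Per kilobase of exon, the order in saline was Mrgprb3 at 13.8 ± 4.12, Mrgprb2 at 7.92 ± 1.45, Mrgprb1 at 4.25 ± 0.13 and Mrgprf at 3.95 ± 0.617 RPKM (CPM divided by the exon length in kilobases, SD, n = 3). Mrgprx2 followed at 0.744 ± 0.0554, Mrgpre at 0.512 ± 0.0487 and Mrgprh at 0.109 ± 0.13. Mrgprb1 and Mrgprf did not differ beyond their spread, and Mrgprb3 and Mrgprb2 did, with the lowest library of Mrgprb3 (10.8) above the highest of Mrgprb2 (9.3). This order rests on the annotated exon lengths. In CPM the saline means ran the other way, at 17.8 for Mrgprb1, 16.4 for Mrgprb2 and 13.9 for Mrgprb3. In rIL-31 the order of the leading genes was Mrgprb3 at 8.93 ± 4.21, Mrgprb2 at 7.53 ± 0.35, Mrgprf at 6.7 ± 1.41 and Mrgprb1 at 5.36 ± 0.658, and these 4 overlapped with their neighbours. Mrgprg reached 1.2 ± 0.533 RPKM there, above Mrgprx2 at 0.639 ± 0.311 and Mrgpre at 0.543 ± 0.2 in the mean, and its libraries (0.85 to 1.82) overlapped those of Mrgprx2 but not those of Mrgpre.

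**Figure D4:**
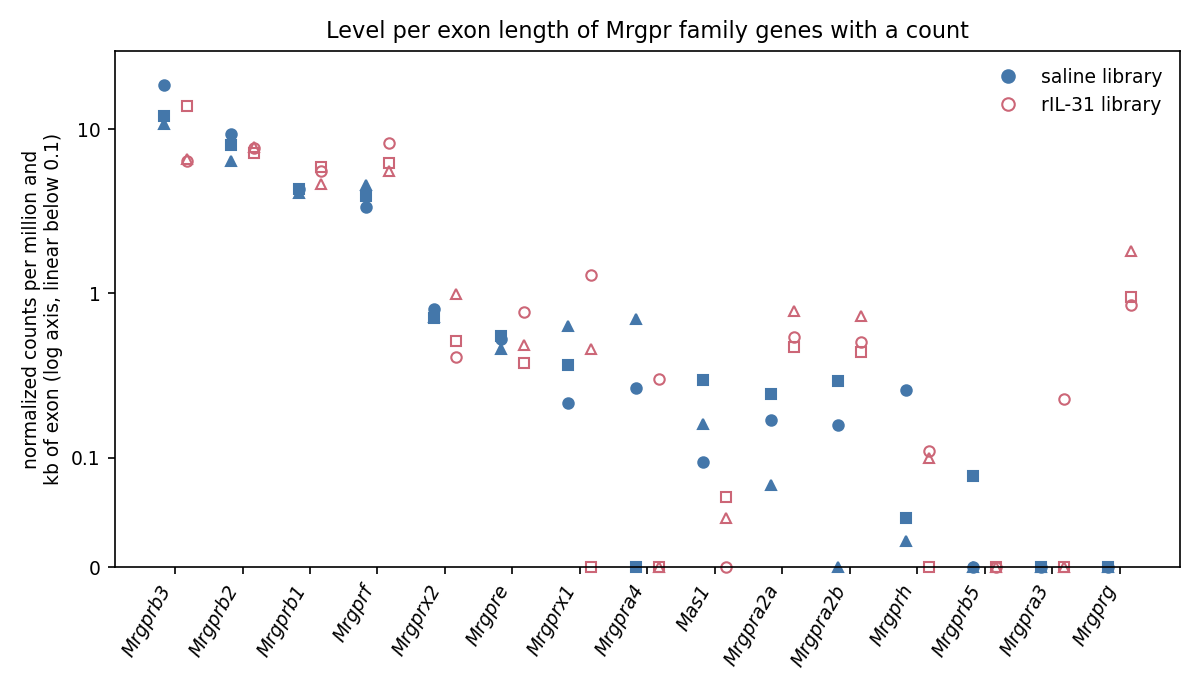
Level per kilobase of exon (RPKM, counts scaled with TMM factors) of the 15 Mrgpr and Mas1 genes with a count, ordered by the saline mean, on a log axis that is linear below 0.1. Filled points are saline and open points are rIL-31 libraries. Mrgprb3, Mrgprb2, Mrgprb1 and Mrgprf lie between 3.36 and 18.5 in every library, and Mrgprg is at 0 in saline and at 0.850 to 1.82 in rIL-31.

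Sensory nerves reach the skin as fibres whose cell bodies lie in ganglia outside it. Of 20 sensory neuron genes, 9 were tested and 1 rose (4.51% of all genes tested), namely Stmn2, a microtubule regulator of growing axons (log2 fold change 0.74 ± 0.19, SE, edgeR FDR = 0.0543), a call that was lost when any 1 of 5 libraries was left out. The sodium channel gene Scn10a had at most 4 counts in a library, the neurofilament genes Nefl and Nefm at most 4 and 3, and the peptide gene Sst none. The summed level of the list was 48 to 49.8 CPM in saline libraries and 53.7 to 65.4 CPM in rIL-31 libraries. Nppb, which encodes a natriuretic peptide with which sensory neurons signal itch, had 13, 11 and 10 counts in saline, against 23, 28 and 41 in rIL-31 (1.32 ± 0.53, FDR = 0.194). Calca, which encodes CGRP, differed by 1.23 ± 0.69 (FDR = 0.36). The part of nerve fibres in the levels of Mrgprg, Mrgpre and Mrgprh was not tested.

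Among genes for ligands of Mrgpr receptors and for the proteases that process them, most ligand genes were low. Exceptions were the beta-defensin genes Defb1 and Defb6, with saline means of 57.2 and 94.8 CPM. The protease genes Ctsb and Ctss were abundant, with saline means of 1274 and 280 CPM. Of 19 genes, 9 were tested and 1 rose, and 0 fell (edgeR FDR below 0.1, against 4.51% and 3.73% of all genes tested), with 3 higher and 0 lower at an unadjusted p below 0.05 and 1 higher and 0 lower by DESeq2. The gene that rose was Defb14, a beta-defensin of the epidermis whose cationic peptide belongs to a class that acts on Mrgprb2. It had 4, 28 and 12 counts in saline, against 82, 65 and 69 in rIL-31, with every rIL-31 library above every saline library. Its log2 fold change was 2.18 ± 0.58 (SE, edgeR FDR = 0.0592), and the call was lost when saline replicate 1 or 3 or rIL-31 replicate 1 or 2 was left out. Npff, the precursor of neuropeptide FF, differed by 1.16 ± 0.51 (FDR = 0.241) with 13 to 20 counts in saline and 26 to 54 in rIL-31. Tac1, the precursor of substance P, was not tested, with 4, 3 and 6 counts in saline, against 7, 31 and 0 in rIL-31. The genes Adcyap1, Vip, Pomc, Cort and Sst had no count. Ctsb and Ctss, cathepsins of which the latter is known to cleave the receptor encoded by Mrgprx1, differed by 0.17 (FDR = 0.431) and 0.02 (FDR = 0.934) on the log2 scale.

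The genes through which Mrgpr receptors signal were detected, except the channel gene Trpa1, which had no count in any library. The channel gene Trpv1 was low, with 22 to 49 counts in saline libraries and 4 to 62 in rIL-31 libraries. Of 28 genes for G proteins, phospholipases, inositol trisphosphate receptors, arrestins, receptor kinases and channels, 27 were tested. At an FDR below 0.1, 0 rose and 2 fell (edgeR, against 4.51% and 3.73% of all genes tested), whereas DESeq2 called 1 higher, and 4 were higher and 2 lower at an unadjusted p below 0.05. The 2 that fell were Itpr1, an inositol trisphosphate receptor (log2 fold change -0.46 ± 0.13, FDR = 0.0616), and Plcb4, a phospholipase C (-0.57 ± 0.17, FDR = 0.085), and with GC and length offsets their FDR was 0.225 and 0.182, so these calls rest on the uncorrected counts. Itpr3 differed by 0.34 (FDR = 0.128, and 0.0895 with the offsets, and it also passed by DESeq2 and with the replicate block) and Grk2, a receptor kinase, by 0.28 (FDR = 0.148). The median over the list was -0.01.

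Among 35 receptors through which other itch mediators act on skin, 30 were tested, and 3 rose and 2 fell (4.51% and 3.73% of all genes tested). Il1rl1, the receptor for IL-33 that mast cells carry, rose by 0.67 ± 0.12 on the log2 scale (SE, edgeR FDR = 0.0109), Il4ra by 0.54 ± 0.13 (FDR = 0.0459) and Il13ra1 by 0.43 ± 0.12 (FDR = 0.0619). Npr3, the natriuretic peptide clearance receptor, fell by 0.92 with an SE of 0.19 (FDR = 0.0219), and Tlr7 fell by 0.61 with an SE of 0.15 (FDR = 0.05). The IL-31 receptor chains did not pass edgeR's test, with Il31ra at 0.51 ± 0.17 (FDR = 0.132) and Osmr at 0.13 ± 0.12 (FDR = 0.611). Il31ra passed by DESeq2, with the replicate block with or without the offsets, and without rIL-31 replicate 3 (lowest FDR 0.0192), and Osmr passed with the block and the offsets together (FDR = 0.0769). The count of receptors that rose was 8 by DESeq2, 5 with GC and length offsets and 9 without rIL-31 replicate 3, and it was 1 when rIL-31 replicate 2 or either of saline replicates 2 and 3 was left out. The median of the list was 0.13.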

How the data were processed

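Dorsal skin was profiled by RNA-Seq in 2 groups of 3 libraries. The authors deposited unnormalized whole-number counts per gene, by Entrez number, in 1 table for all libraries, and the counts were used as they stand. The submitters' processing notes name bcl2fastq, CASAVA 1.8, TopHat, DESeq and mm10. The counting program, its use of strand and how multi-mapping reads were handled were not given in the sources used here, which leaves paralogs and overlapping genes uncertain. Symbols came from RefSeq (GRCm38.p6), in which 85 numbers had no name. These held 4.74% to 6.03% of the counts in saline and 0.913% to 2.84% in rIL-31 libraries and stayed in the fit. Exon lengths, GC content and positions came from the GENCODE annotation (GRCm38). Groups follow the sample titles.

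The fit used edgeR 4.0.16 (R 4.3.3) with TMM normalization, filterByExpr at a minimum count of 10 (16371 genes kept) and the quasi-likelihood test with treatment as the only term, with Benjamini-Hochberg FDR below 0.1 over all genes tested. It was tested on simulated data. Values of the receptors carry no p because they were chosen on these counts. A fold against a group at 0 used a floor of 3 counts per library. Intervals cover counting error only. The receptors, the gene lists and the rules were chosen with earlier results of these data known. The genes named are the receptors, every other family gene with a count, the 4 tested genes of each list with the smallest p, Il31ra and Osmr, 5 mast cell markers and, for each receptor past the filter, the 3 genes most like it among those with a mean of at least 1 CPM. All other genes, the neutrophil list, the TGACTCA motif and the ratios to mast cell genes were chosen after the values were seen. Alternatives were DESeq2 1.42.0, RLE and upper-quartile normalization, plain library sizes, either no filter or one of at least 10 counts in every library, a replicate block, GC and length offsets (94.2% of tested genes had both values), block and offsets together, other thresholds and each library left out. The lowest chi-square per degree of freedom between 2 libraries was 8.683, so none was a duplicate. The Schwann cell list is not reported here.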

Additional observations from a re-analysis of the deposited data

How the results depend on the processing

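Of the receptors, the log2 fold change over all alternatives ran from 0.58 to 0.88 for Mrgprf and from 0.25 to 0.51 for Mrgprb1. It ran from -0.20 to 0.10 for Mrgprb2 and from -0.25 to 0.27 for Mrgpre, so the direction of Mrgprb2 and Mrgpre is not settled. The lower bound for Mrgprg ran from 3.76 to 4.38 over 9 alternatives. These were other normalizations and libraries left out, without the GC and length offsets. Of the 47 other named genes, 19 were called and 4 of these (Hdc, Pi16, Il1rl1 and S100a9) kept the call under every alternative, and 0 calls turned direction. The total of genes that rose was 739 and that of genes that fell was 610. With a replicate block they were 1177 and 1096, and the count that rose was 1332 with the block and the GC and length offsets together. DESeq2 called 924 genes lower. The counts were 188 and 114 with a fold above 2 added, and 448 and 356 at an FDR below 0.05. Leaving out 1 library gave 246 to 2050 higher and 171 to 1968 lower, the most without rIL-31 replicate 3 and the fewest without saline replicate 2. The list counts, in the order higher and lower, were 6 and 0 for mast cells (1 to 6 and 0 to 1 with 1 library left out) and 1 higher for ligands (0 to 1). For signaling they were 0 and 2, and 2 higher with the replicate block, 2 higher and 0 lower with the offsets, 3 higher and 0 lower with both, 1 higher by DESeq2, and 0 to 4 higher and 0 to 5 lower with 1 library left out. For other itch receptors they were 3 and 2, and 8 higher and 4 lower with the replicate block, 5 higher with the offsets, 8 higher with both, 5 higher with at least 10 counts in every library, 8 higher by DESeq2, and 1 to 9 higher and 0 to 4 lower with 1 library left out. Among other family genes 0 were lower, and 0 to 1 with 1 library left out (Mrgprb3, without rIL-31 replicate 2). The cause of these shifts was not tested. No pairing by replicate number was assumed in the main fit. The correlation of same-numbered libraries, on deviations from the group means, was 0.123, -0.062 and 0.376, and not every library correlated best with its own number. With so few libraries these values cannot settle whether the libraries were paired. Depth limits Mrgprh, Mas1 and the Mrgpra genes, which had 25 or fewer counts in every library.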
